A study of Mus musculus with 6 samples.

Results

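Integrin and laminin genes were followed in whole mouse kidneys at postnatal day 13, with and without deletion of the transferrin receptor in the nephron lineage. The members were every gene whose symbol names an integrin alpha chain, an integrin beta chain or a laminin chain, and 37 of the 24422 genes in the count tables met that rule. The 36 members described here comprised 26 integrins and 10 laminins. The integrins were divided by where they are best known into 8 leukocyte, 9 epithelial and 9 other genes. Fold changes are given for the 35 of these members with 60 or more reads summed over the 6 libraries. The exception, the leukocyte integrin Itgad, had 0, 0 and 6.46 normalized counts in Control and 0, 0 and 0.946 in knockout libraries.

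Poly-A RNA was sequenced from 3 Control and 3 TfR1KO;Six2Cre kidneys of C57BL/6 mice fed a diet with 220 ppm iron. The Control mice were labelled wild type, and the knockout mice Tfr1f/f;SixCre. In the knockout, exons of the transferrin receptor gene Tfrc (TfR1) lie between loxP sites, and the recombinase Six2CreEGFP is active in the progenitors of the nephron but not in the ureteric bud, which forms the collecting ducts. The study describes cells that kept TfR1 in these tubules, so the knockout kidney is a mosaic. The comparison asks which transcripts differ when receptor-mediated iron uptake is targeted in the nephron. Total gene counts ran from 16591156 to 22898008 per library. Tfrc itself stood at 5534, 6485 and 3667 normalized counts in Control and 6976, 4045 and 5898 in knockout libraries, so its total count overlapped between groups and does not check the labels.

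Integrins are cell-surface receptors made of 1 alpha and 1 beta chain, through which cells hold on to the matrix or to each other. Laminins are cross-shaped proteins of the basement membrane, each assembled from an alpha, a beta and a gamma chain. In the kidney, tubules rest on a basement membrane rich in the laminin α5 and γ1 chains, and the glomerular filter uses the β2 chain. Epithelial cells bind laminin mainly through integrin α3 paired with β1, and α6 paired with β1 or β4. Leukocytes carry a separate set, the β2 integrins, with which they bind vessel walls and complement.

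Of the 35 members, 11 were higher and 3 lower in TfR1KO;Six2Cre kidneys at an adjusted p under 0.05 (DESeq2 Wald test, adjusted over 16509 genes), and 21 did not pass. Over all tested genes, 7.74% were higher and 7.18% lower. Among members the shares were 31.4% higher and 8.57% lower. With a 2-fold change required as well, 5 members were higher and 3 lower, against 4.41% and 4.46% of all genes. The stricter quasi-likelihood test of edgeR called 6 members higher and 3 lower, where 3.22% and 2.8% of its 15308 genes were called. The knockout libraries all lay above the Control libraries for 13 members and all below for 5, while each of these patterns held for 16.9% of all genes. The median log2 fold change was 0.18 over the members and 0.007 over all genes. The higher members were the laminin chains Lama5, Lama3 and Lamb2, the epithelial integrins Itgb4, Itga3 and Itgav, the leukocyte integrins Itgam and Itgb2, and Itgb3, Itga10 and Itga7. The lower members were Itga8, Itgb6 and Lamc3.

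**Figure D1:**
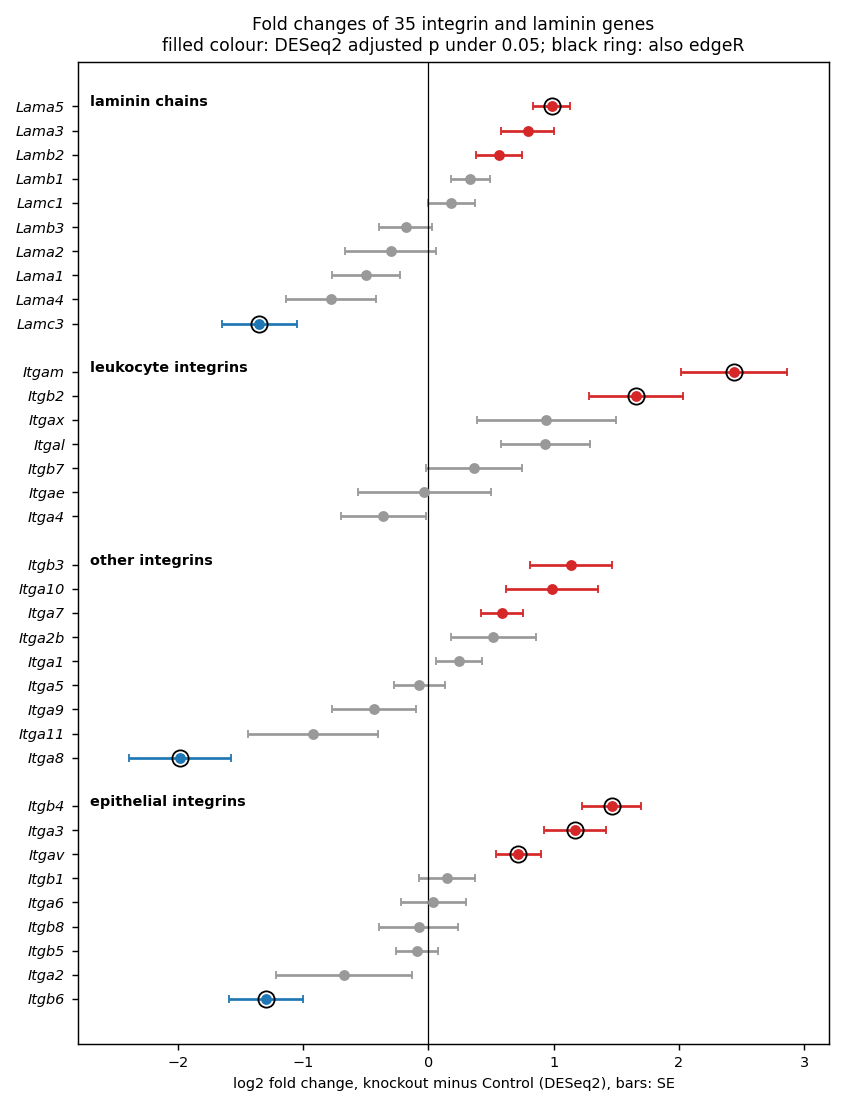
Log2 fold change of each of the 35 members, knockout minus Control (x axis, log2 units), with bars for the standard error, 3 libraries per group. Colour marks an adjusted p under 0.05 by DESeq2, red for higher and blue for lower, and a black ring marks members that edgeR also called; the 9 ringed members run from Itga8 at -1.98 to Itgam at 2.44.

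Because the tissue was whole kidney, fewer cells of a type and less RNA per cell cannot be told apart. Marker genes of the cell types moved with the groups, and their part in the results below was not tested. Summed over 6 collecting duct markers, levels were 12352 to 15939 normalized counts in Control and 39899.9 to 71968 in knockout libraries. Of these markers, 6 of 6 passed as higher with DESeq2 but 2 of 6 with edgeR, beside 7.74% and 3.22% of all genes. Aqp2 alone had 5747, 5581 and 2409 normalized counts in Control and 17805, 50719 and 23564 in knockout libraries. The list did not move as a unit in Control replicate 3. Against the mean of the other Control libraries, on the log2 scale, Aqp2 (-1.23), Aqp3 (-1.09) and Gata3 (-0.61) were lower. Krt18 (0.83), Krt19 (0.64) and Krt8 (0.099) were higher. Summed over 6 tubule markers, levels were 86583 to 185209 and 39356 to 57214. Here 4 of 6 were lower with DESeq2 and 2 of 6 with edgeR, beside 7.18% and 2.8% of all genes. Without Control replicate 3, 6 of 6 tubule markers were lower, beside 6.78% of all genes. The sum over 19 leukocyte markers ranged from 3060 to 5139 in Control and from 8965 to 10507 in knockout libraries. Sums over podocyte and endothelial markers overlapped between groups. Of 6 podocyte markers, 1 was higher with DESeq2 and with edgeR, Wt1 (log2 fold change 1.20, SE 0.22, edgeR adjusted p 0.0159). Of 7 endothelial markers, 1 was higher with DESeq2, Flt1 (adjusted p 0.0251), and 0 with edgeR. In both lists 0 were lower. The shares of all genes higher were 7.74% with DESeq2 and 3.22% with edgeR. Tubule, podocyte and collecting duct markers were detected in every library. Control replicate 3 stood apart, with a stromal marker sum of 150610.0 against 76321 and 74104 in Control replicates 1 and 2, and the lowest tubule sum of the Control libraries. Several members stood apart in that library as well. On the log2 scale it exceeded the mean of the other Control libraries by 1.35 for Itga8, 1.31 for Itgam, 1.26 for Lama2 and 1.07 for Itga4, and fell short of it for Itgb6 (-0.88), Itga3 (-0.76) and Itga6 (-0.76). Without it, 11 members were higher and 3 lower, where 7.53% and 6.78% of 16381 genes were, and Itgal passed in place of Itga10.

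**Figure D2:**
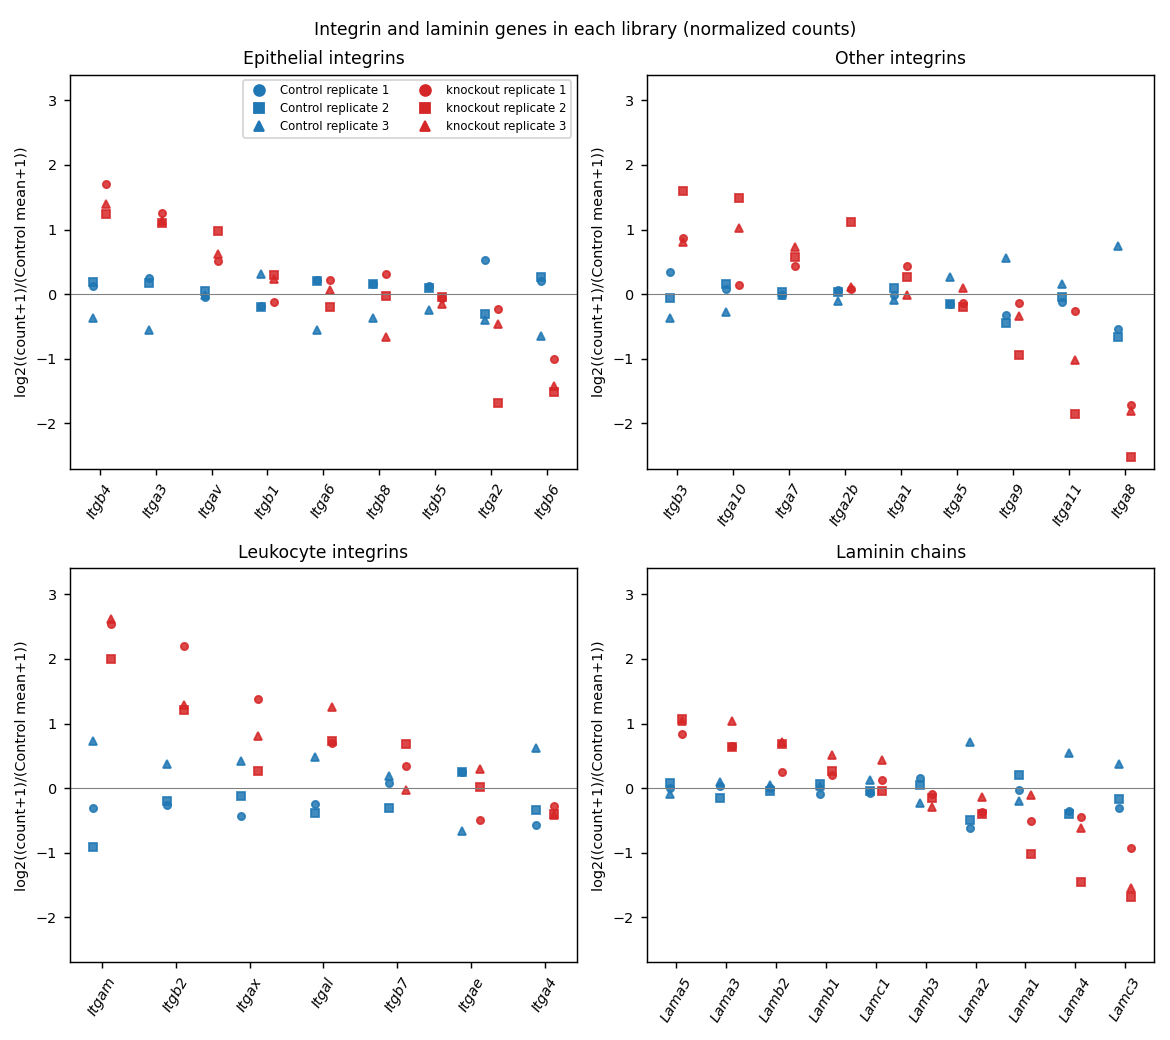
Level of each member in each library as the log2 ratio to its Control mean (y axis; 1 normalized count added to both), in 4 panels for the 4 classes, with Control libraries in blue, knockout libraries in red and the replicate number as the symbol. Lama5, Itga3 and Itgb4 show knockout points clear of all Control points, and the triangle of Control replicate 3 stands above the other Control points for Itga8, Lama2 and Itgam.

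Lama3 and Lamb3, the α3 and β3 chains, occur together in the laminin that anchors epithelia to the matrix. Lama3 rose from 229, 201 and 239 normalized counts in Control to 352, 347 and 457 in knockout libraries (log2 fold change 0.79, SE 0.21), and the groups did not overlap. Its DESeq2 adjusted p was 0.00348, but edgeR did not call it (adjusted p 0.0586). The Lama3 call was lost without Control replicate 1 (adjusted p 0.0615), Control replicate 2 (0.0897) or knockout replicate 3 (0.0721). Lamb3 had 275, 256 and 212 against 232, 224 and 201 normalized counts (log2 fold change -0.18, SE 0.21, DESeq2 adjusted p 0.621).

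Lama5, the α5 chain of mature tubular and glomerular basement membranes, rose from an already high level. Lama5 (chromosome 2, 179911078 to 179960564, minus strand) had 6000.0, 6321 and 5572 normalized counts in Control and 10636, 12469 and 12271 in knockout libraries. Every knockout value was well above every Control value. The log2 fold change was 0.98 (SE 0.15, DESeq2 adjusted p 2.05e-09, edgeR adjusted p 0.0172). Lamb2, the β2 chain of the glomerular basement membrane, rose from 3319, 3209 and 3435 to 3954, 5316 and 5464 (chromosome 9, 108382193 to 108392861, plus strand). Its change was smaller (log2 fold change 0.56, SE 0.18, DESeq2 adjusted p 0.0205) and edgeR did not call it (adjusted p 0.0876). The Lamb2 call was also lost without Control replicate 1, Control replicate 2, knockout replicate 2 or knockout replicate 3, with adjusted p from 0.0911 to 0.177. Lamb1 and Lamc1, the laminin chains with the highest Control levels per length, did not pass. Lamb1 had 9788, 10838 and 10633 normalized counts in Control and 11983, 12483 and 14919 in knockout libraries, without overlap but with a DESeq2 adjusted p of 0.142. Lamc1, which most laminins share, overlapped between groups (log2 fold change 0.18, SE 0.19).

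Lamc3, the γ3 chain, was the single laminin that fell. Lamc3 (chromosome 2, 31742811 to 31802059, plus strand) had 585, 644 and 939.7 normalized counts in Control and 379, 225 and 246 in knockout libraries. The groups did not overlap, and the log2 fold change was -1.35 (SE 0.30, DESeq2 adjusted p 0.000173, edgeR adjusted p 0.0342). Of its annotated exon bases, 6.27% are shared with another gene model. The α chains other than Lama3 and Lama5 gave negative values that did not pass. Lama1, a chain of the early nephron, had 1059, 1238 and 936 against 755, 529.7 and 1001 normalized counts (DESeq2 adjusted p 0.221). Lama4, a chain of vessel walls, had 968, 942 and 1819 against 909, 453 and 807 (DESeq2 adjusted p 0.132). Lama2, best known from muscle, had 1185, 1288 and 2971 against 1397, 1380.5 and 1642, and its log2 fold change went from -0.30 to 0.25 when Control replicate 3 was left out. Lama2, Lama4 and Lamc3 were all highest in Control replicate 3, the library with the highest stromal marker sum.

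The balance of chains was compared within the α and β classes. Counts were divided by each gene's annotated exon length and expressed as a share of all α or β chain RNA in that library. Such shares do not depend on how libraries are scaled. The Lama5 share was 55.9% ± 8.68 in Control and 75.9% ± 3.80 in knockout libraries (SD, n = 3 each). The shares of Lama1 (12.1% and 5.85%), Lama2 (19.1% and 11.1%) and Lama4 (10.7% and 4.43%) were smaller in every knockout library than in any Control library. These smaller shares are not results separate from the Lama5 share, and the counts of these chains did not pass the DESeq2 test. That of Lama3 overlapped (2.25% and 2.68%). Among β chains the differences were small, with Lamb1 at 61.9% and 59.0% and Lamb2 at 34.8% and 38.7%, both overlapping, and Lamb3 at 3.35% and 2.27% without overlap. An exact permutation test over the 6 libraries gave a two-sided p of 0.1 for each of the 5 shares without overlap. That is the smallest p that 3 against 3 allows, so none of the 8 shares could pass 0.05. Without Control replicate 3 the difference in the Lama2 share was -3.20 percentage points in place of -7.98. Taking the longest transcript as the length, the difference in the Lama4 share was -10.7 in place of -6.23.

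**Figure D3:**
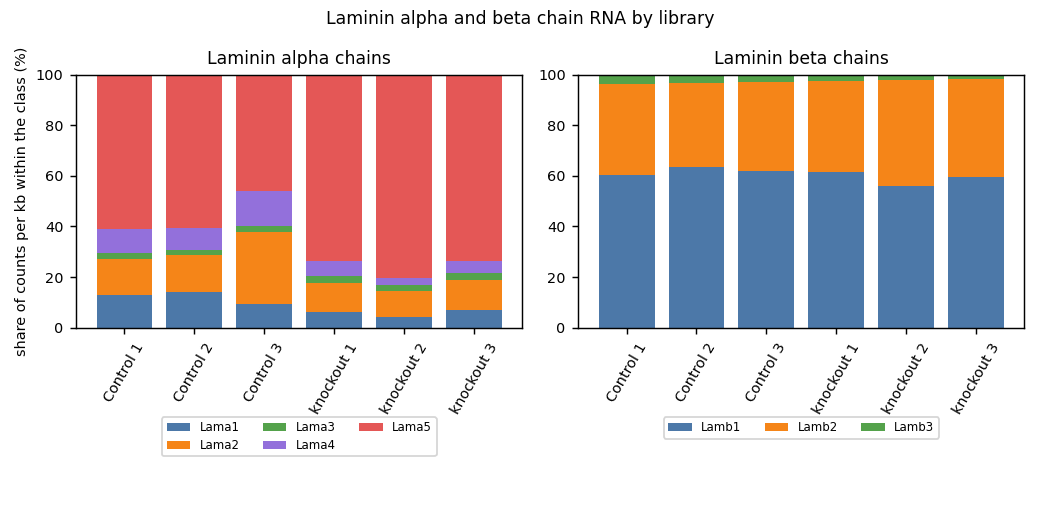
Share of each laminin chain in the summed counts per kb of its class (y axis, percent) in each of the 6 libraries, with α and β chains in separate panels. The Lama5 block runs from 45.8% to 61.1% in Control libraries and from 73.7% to 80.3% in knockout libraries.

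Among the 9 epithelial integrins, 3 rose and 1 fell with DESeq2, or 33.3% and 11.1%, beside 7.74% and 7.18% of all genes. With edgeR 3 rose and 1 fell as well, beside 3.22% and 2.8%. Itgb4, the β4 chain that pairs with α6 at the junctions anchoring epithelia to laminin, had 476, 498 and 338 normalized counts in Control and 1432, 1029.9 and 1153 in knockout libraries (chromosome 11, 115836023 to 115869726, plus strand). The lowest knockout value exceeded the highest Control value, and the rise was 2.75-fold (log2 fold change 1.46, SE 0.24, DESeq2 adjusted p 4.75e-08, edgeR adjusted p 0.0118). Annotation places 7.66% of its exon bases within another gene model as well. Itga3, the α3 chain of the main laminin receptor of podocytes and tubules, rose from 2195, 2075 and 1257 to 4420.3, 3964 and 4037 (chromosome 11, 94905788 to 94938115, minus strand). Control replicate 3 was the lowest of all, and the other Control libraries stayed far below the knockout libraries. The log2 fold change was 1.17 (SE 0.25, DESeq2 adjusted p 7.18e-05, edgeR adjusted p 0.0289), and 0.95 without Control replicate 3.

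Itga6, the α6 chain with which Itgb4 pairs, overlapped between groups. It had 6533, 6487 and 3843 normalized counts in Control and 6556, 4901 and 5881 in knockout libraries (log2 fold change 0.04, SE 0.26). Itgb1, the shared partner of most matrix-binding alpha chains and the most abundant member per length, had 11952, 11839 and 16866 against 12485, 16641 and 15981 (log2 fold change 0.15, SE 0.22, DESeq2 adjusted p 0.715). Per kb of exon, Itgb4 stood at 0.102 ± 0.0101 of the Itga6 level in Control and at 0.268 ± 0.0145 in knockout libraries. This ratio and those that follow were chosen after the values were seen and carry no test. In the Itgb4 ratio all knockout libraries lay above all Control libraries. The size of the ratio, though not its fold between groups, depends on the exon length taken. Itga6 has 9025 annotated exon bases but 4310 in its longest transcript, and Itgb4 has 7015 and 6208.

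The αv integrins bind the arginine-glycine-aspartate motif of matrix proteins such as vitronectin, fibronectin and osteopontin, and some of them activate latent transforming growth factor beta. The αv chain and its partner chains went in different directions. Itgav (chromosome 2, 83564554 to 83647073, plus strand) rose from 3299, 3517 and 3338 to 4854, 6644 and 5182 normalized counts. The Control values lay close together, and all knockout values were higher (log2 fold change 0.72, SE 0.18, DESeq2 adjusted p 0.00131, edgeR adjusted p 0.0445). Without Control replicate 1 the call was narrowly lost (DESeq2 adjusted p 0.0509). Itgb6, an epithelial β chain that pairs with αv alone, fell from 2395, 2507 and 1332 to 1039, 724 and 779 (chromosome 2, 60436349 to 60560700, minus strand). All knockout values were below the lowest Control value, that of replicate 3 (log2 fold change -1.29, SE 0.29, DESeq2 adjusted p 0.000282, edgeR adjusted p 0.0352). Itgb6 fell beside the tubule markers, whose summed level is given above. Itgb3, the β3 chain shared by αv in several cell types and by αIIb in platelets, rose from 171, 129 and 104 to 247, 408 and 237 (log2 fold change 1.14, SE 0.32, DESeq2 p 0.00598 after adjustment). Its edgeR adjusted p was 0.0691, and without Control replicate 2 its DESeq2 adjusted p was 0.0629. Itgb5 and Itgb8, further partners of αv, overlapped between groups, with log2 fold changes of -0.09 (SE 0.17) and -0.08 (SE 0.32). Per kb, Itgb6 stood at 0.926 ± 0.280 of the Itgav level in Control and 0.238 ± 0.0800 in knockout libraries, and Itgb5 at 2.95 ± 0.388 and 1.71 ± 0.258. The remaining epithelial integrin, Itga2, a collagen receptor chain, was low and overlapped (62.7, 34.5 and 32.3 against 36.8, 12.8 and 31.2).

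A start region each of Itgav and Itgb6 is shown because these chains form 1 receptor and went in opposite directions. For Itgb6 it is the one with a motif match, and it lies downstream of the other Itgb6 start region. RefSeq start regions were at hand for 23 of the 36 members, as 26 windows of 250 bases that end before the annotated start (build GRCm38.p6, which is not the build of the counts). The windows were searched on both strands for AP-1 (TGANTCA), the hypoxia-response core (ACGTG) and PU.1 (GAGGAAGT). PU.1 is a factor of myeloid cells. Its letters were in 3 of the 26 windows, those of Itgav, Itgb6 and Itga11, and in 2.44% of all 32851 start regions. The AP-1 letters were in 1 window (Itgax; 6.75% of all) and the hypoxia-response core in 1 window (Itga9; 16.6% of all). No window held more than 1 of these motifs, and a match is a description of letters, not a binding site. In each sequence below, written 5′ to 3′ on the gene's strand, capitals mark the PU.1 letters, and the window is chr2:83724147-83724396 (plus strand) for Itgav and chr2:60673694-60673943 (minus strand) for Itgb6.
Itgav: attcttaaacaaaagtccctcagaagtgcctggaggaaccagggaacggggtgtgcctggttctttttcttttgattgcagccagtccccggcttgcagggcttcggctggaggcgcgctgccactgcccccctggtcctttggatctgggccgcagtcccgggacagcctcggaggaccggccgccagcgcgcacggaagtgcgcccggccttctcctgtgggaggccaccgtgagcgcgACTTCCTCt
Itgb6: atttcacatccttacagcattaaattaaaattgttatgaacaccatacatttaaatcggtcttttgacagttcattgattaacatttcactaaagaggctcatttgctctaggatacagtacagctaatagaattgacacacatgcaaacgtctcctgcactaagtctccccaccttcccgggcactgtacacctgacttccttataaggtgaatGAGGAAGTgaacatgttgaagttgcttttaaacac
The motif lies on the opposite strand in Itgav and on the strand shown in Itgb6. The upstream Itgb6 start region (chr2:60722604-60722853) held none of the letters searched, so the match does not describe every Itgb6 start.

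Of the 9 other integrins, 3 rose and 1 fell with DESeq2, or 33.3% and 11.1%, beside 7.74% and 7.18% of all genes. With edgeR 0 rose and 1 fell, beside 3.22% and 2.8%. Itga8, the α8 chain, which with β1 binds nephronectin and takes part in the growth of the ureteric bud, and later marks mesangial and stromal cells, fell the furthest of all members. Itga8 (chromosome 2, 12028259 to 12223547, minus strand) had 1923, 1762 and 4699 normalized counts in Control and 846, 484 and 793 in knockout libraries. Control replicate 3 was far above the other Control libraries, but these too lay above every knockout library. The log2 fold change was -1.98 (SE 0.41, DESeq2 adjusted p 4.31e-05, edgeR adjusted p 0.0384), and -1.38 without Control replicate 3 (DESeq2 adjusted p 3.48e-05). Of 9 stromal markers, 2 were lower (22.2%) and 0 higher with DESeq2, beside 7.18% and 7.74% of all genes. With edgeR 0 were lower, beside 2.8%. Without Control replicate 3, 0 were lower and 1 higher, beside 6.78% and 7.53%. The stromal marker sums ran from 74104 to 150610.0 in Control and from 42252 to 74941 in knockout libraries, overlapping slightly. Another gene model shares 5.07% of the Itga8 exon bases.

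Itga7, a laminin receptor chain known from muscle, differed little in size but had very even Control values. It had 425, 439 and 428 normalized counts in Control and 586, 641 and 718 in knockout libraries (log2 fold change 0.59, SE 0.17, DESeq2 adjusted p 0.0057). It was not called by edgeR (adjusted p 0.0577), nor by DESeq2 without Control replicate 1 (0.129), Control replicate 2 (0.0959) or knockout replicate 3 (0.106). Itga10, a collagen receptor chain of cartilage, was at the edge of the threshold. Its values were 160.0, 169 and 124 against 166, 426 and 307, so knockout replicate 1 lay among the Control libraries (log2 fold change 0.99, SE 0.37, DESeq2 adjusted p 0.0498, edgeR adjusted p 0.132). The call was lost in 5 of the 6 fits that left out 1 library, all except that without knockout replicate 1, and the lowest log2 fold change was 0.65, without knockout replicate 2. In addition, 33.5% of the Itga10 exon bases lie within another gene model as well.

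The other members of this class did not pass. Itga1 and Itga5, receptor chains for collagen and fibronectin, overlapped between groups (log2 fold changes 0.24, SE 0.18, and -0.07, SE 0.20). Itga9, a receptor chain for tenascin and other matrix proteins, had 1619, 1489.7 and 2976 against 1842, 1058 and 1611. Itga11, a fibroblast collagen receptor chain, was low, with 36.3, 38.2 and 44.1 against 32.8, 10.2 and 18.9, and the groups did not overlap although the DESeq2 adjusted p was 0.24. Itga2b, the αIIb chain of platelets and megakaryocytes, had 181, 178 and 161 against 184, 376 and 188. Its values too did not overlap, and its highest was knockout replicate 2, where Itgb3 was also highest. Platelet marker sums, led by Pf4, overlapped between groups, from 89.98 to 248 in Control and from 139 to 253 in knockout libraries, with Gp6 at 0 in every library.

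The 7 tested leukocyte integrins included the largest rise of all members. Itgam, the αM chain (CD11b) of macrophages and neutrophils, had 55.2, 36.4 and 115 normalized counts in Control and 406, 279 and 429 in knockout libraries (chromosome 7, 135206154 to 135271674, plus strand). The lowest knockout value exceeded the highest Control value, and the rise was 5.42-fold (log2 fold change 2.44, SE 0.42, DESeq2 adjusted p 5.77e-07, edgeR adjusted p 0.0247). Without Control replicate 3 the log2 fold change was 3.01. Itgb2, the β2 chain (CD18) with which Itgam pairs, rose from 55.2, 57.3 and 86.1 to 306, 155 and 163 (chromosome 10, 76992997 to 77028453, plus strand). Knockout replicate 1 was the highest, and no knockout value reached down to the Control range (log2 fold change 1.66, SE 0.38, DESeq2 adjusted p 0.000291, edgeR adjusted p 0.0432). Itgal, the αL chain (CD11a) found on most leukocytes, had 60.2, 54.5 and 100.1 against 116, 119 and 172. These groups did not overlap, but the DESeq2 adjusted p was 0.0555, and it was 0.0062 without Control replicate 3.

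Itgax, the αX chain (CD11c) of dendritic cells and some macrophages, had 11.5, 14.5 and 21.5 against 42.8, 19.2 and 28.4 normalized counts and overlapped (DESeq2 adjusted p 0.263). Part of its sequence is shared with Itgad, in 3.70% of its 100-base stretches. The integrins best known from lymphocytes did not pass the test. Itga4, which pairs with β1 or β7 on lymphocytes and is also found on other cells, had 244, 286 and 559 against 300.3, 275 and 272. Its log2 fold change went from -0.36 to 0.09 when Control replicate 3 was left out. Itgb7, its partner on gut-homing lymphocytes, had 42.1, 31.8 and 45.2 against 50.7, 64.0 and 38.8, and Itgae, the αE chain that binds E-cadherin, 27.2, 27.3 and 14.0 against 15.9, 23.0 and 28.4. Both overlapped between groups, with DESeq2 adjusted p of 0.584 and 0.98.

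Leukocyte markers moved with Itgam and Itgb2. Of 18 markers tested, 10 were higher and 0 lower with DESeq2, beside 7.74% and 7.18% of all genes. With edgeR, 5 of 17 were higher and 0 lower, beside 3.22% and 2.8%. In normalized counts, 9 of the 19 on the list were above the Control range in every knockout library, and 1 was below it. Each of these patterns held for 16.9% of all genes. None was at 0 in every library. Ptprc (CD45), carried by nearly all leukocytes, had 178, 154 and 309 against 431, 356 and 334 normalized counts and did not pass (DESeq2 adjusted p 0.0627). Csf1r, the receptor that marks macrophages, had 983, 1153 and 1055 against 1382, 1140.0 and 1581 (DESeq2 adjusted p 0.199). T cell markers were low. Cd3e had at most 9.07 normalized counts in any library, and Cd8a lay below the Control range in every knockout library without passing the test (DESeq2 adjusted p 0.0783). The 10 markers that rose are all best known from myeloid cells. Among them, S100a8 and S100a9 overlapped between groups and were not called by edgeR (adjusted p 0.119 and 0.118). Besides Csf1r, the myeloid markers Adgre1 and Mpo did not pass (DESeq2 adjusted p 0.146 and 0.833). Adgre1 had 110, 124 and 223 against 439, 118 and 379 normalized counts. The Control library with the highest Itgam, replicate 3, also had the highest leukocyte marker sum of its group.

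**Figure D4:**
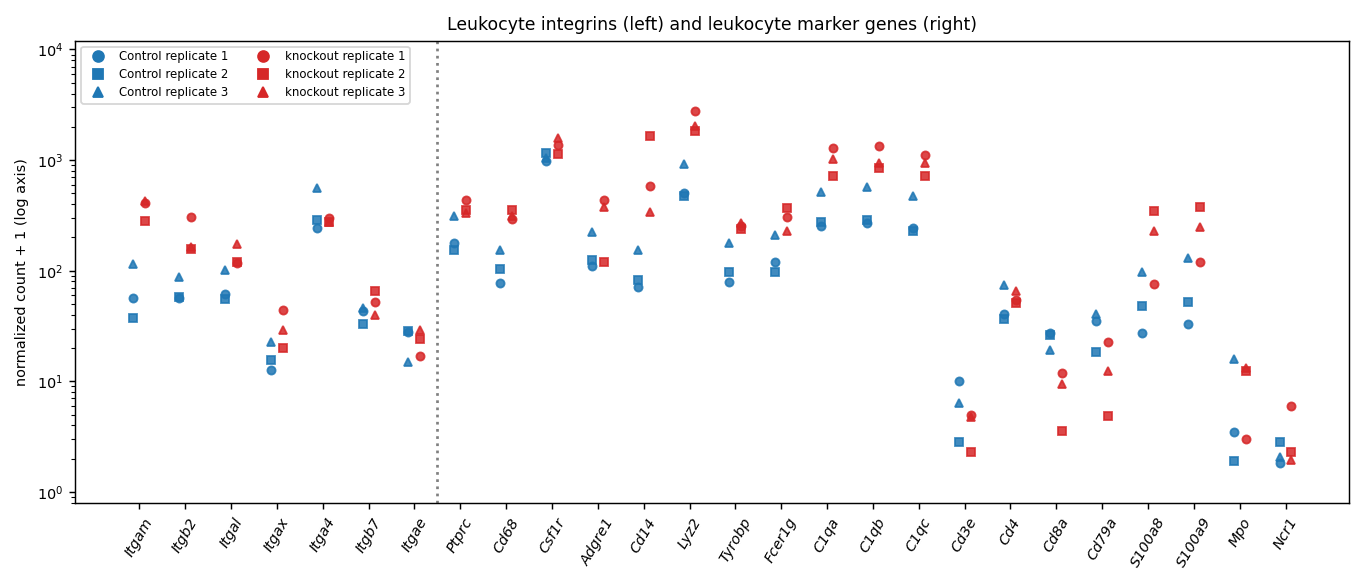
Normalized counts plus 1 (y axis, log scale) of the 7 tested leukocyte integrins, left of the dotted line, and of 19 leukocyte marker genes, right of it, with Control libraries in blue and knockout libraries in red. Itgam is at 36.4 to 115 in Control and 279 to 429 in knockout libraries, while Itga4, Itgb7 and Itgae overlap between groups.

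Levels were compared between genes only per kb of exon. All annotated exon bases were taken as the length, and ranks depend on that choice. In Control kidneys Itgb1 led with 3321 ± 703 normalized counts per kb, followed by Lamb1 (1051 ± 56.1), Itgb5 (929 ± 125), Lamc1 (889 ± 71.4) and Itga6 (623 ± 171). Itgb5 and Lamc1 did not differ beyond their spread, whereas Itgb1 stood clear of the rest. At the low end were Itgax (3.92 ± 1.27), Itgae (4.98 ± 1.67) and Itga11 (7.70 ± 0.799), whose ranges lie close together. In knockout kidneys Itgb1 again led (3684 ± 547), and Lamb1 was at 1324 ± 158. Lama5 (1034 ± 88.2) and Lamc1 (1009 ± 169) were within their spread of each other. Leukocyte integrins remained low throughout, with Itgam at 10.8 ± 6.45 and 58.2 ± 12.7 and Itgb2 at 21.7 ± 5.66 and 68.1 ± 27.9 per kb.

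**Figure D5:**
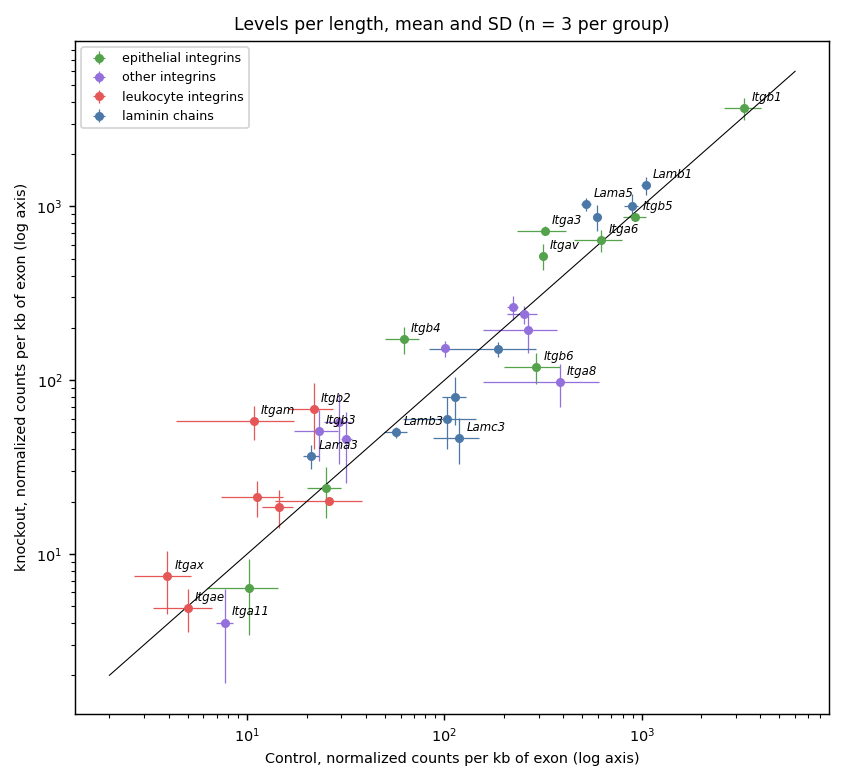
Mean normalized counts per kb of exon in Control (x axis, log scale) and knockout libraries (y axis, log scale) for the 35 members, coloured by class, with bars for the SD (n = 3 per group) and a line of equal levels. Itga3 (323 and 725) and Itgam (10.8 and 58.2) lie above the line, and Itga8 (384 and 97.3) and Itgb6 (292 and 119) below it.

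Genes around the integrins and laminins were taken from 4 lists with 83 genes, of which 81 were tested. Of these, 8 were higher and 9 lower, or 9.88% and 11.1%, close to the 7.74% and 7.18% of all genes. The 29 matrix ligands and basement membrane partners gave 1 higher and 5 lower genes with DESeq2, or 3.45% and 17.2%. With edgeR 1 was higher and 1 lower, where 3.22% and 2.8% of all genes were. Without Control replicate 3, 2 were higher and 8 lower, where 7.53% and 6.78% of all genes were. The median log2 fold change of the list was -0.37. Spp1, which encodes osteopontin, a ligand of the αv integrins, rose from 31335, 34059 and 28115 to 129737, 113333 and 80904 normalized counts (log2 fold change 1.79, SE 0.22, DESeq2 adjusted p 1.28e-13). Tinag, a basement membrane protein of tubules, fell from 3026, 2981 and 2429 to 1056, 1185 and 881 (log2 fold change -1.44, SE 0.19, DESeq2 adjusted p 1.45e-11). In both genes the groups were well apart. Npnt, which encodes nephronectin, the ligand of the Itga8 receptor, had 25774, 27399 and 13287 against 13890.3, 11959.9 and 11549, with Control replicate 3 below knockout replicate 1 (log2 fold change -0.83, SE 0.29, DESeq2 adjusted p 0.0344, edgeR adjusted p 0.127). Leaving out Control replicate 1 or 2 or knockout replicate 2 or 3 ended the Npnt call (DESeq2 adjusted p 0.109 to 0.235). Fras1 and Frem1, which work with nephronectin at basement membranes, also fell under DESeq2 (log2 fold changes -0.69, SE 0.22, and -1.36, SE 0.46) but not under edgeR (adjusted p 0.07 and 0.129). The Frem1 change was -0.61 without Control replicate 3 and no longer passed (DESeq2 adjusted p 0.175). Fras1 did not pass without Control replicate 1, Control replicate 2 or knockout replicate 2 (DESeq2 adjusted p 0.0788 to 0.164), nor Frem1 without knockout replicate 2 or 3 (0.126 and 0.0959). Col4a6, a collagen IV chain, fell (log2 fold change -0.85, SE 0.23, DESeq2 adjusted p 0.00408), though not under edgeR (adjusted p 0.0521) or without Control replicate 1 (0.1003) or 2 (0.07). Fibronectin and the main collagen IV chains did not pass.

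Of 13 tested ligands of the leukocyte integrins, 6 were higher and 2 lower, or 46.2% and 15.4%, beside 7.74% and 7.18% of all genes. With edgeR 4 were higher and 1 lower, beside 3.22% and 2.8%. C3, the complement protein whose fragment the Itgam receptor binds, rose from 646, 409 and 899 to 2876, 2836 and 1610.0 normalized counts (log2 fold change 1.91, SE 0.35, DESeq2 adjusted p 1.98e-06). Icam1, a ligand of the β2 integrins on vessels and epithelia, rose from 353, 385 and 594 to 911, 1011 and 852 (log2 fold change 1.06, SE 0.25, DESeq2 adjusted p 0.000593). In neither did the groups overlap. Fibrinogen chains also bind these integrins. Fgg rose from at most 34.4 to 368, 1100.3 and 444 (log2 fold change 4.31, SE 0.44), and Fga from 218, 311 and 209 to 492, 1963 and 569 (log2 fold change 2.03, SE 0.50), both highest in knockout replicate 2. Without that library the log2 fold changes were 3.66 for Fgg and 1.11 for Fga. Fga did not pass under edgeR (adjusted p 0.0676). Jam2, a junctional adhesion molecule, rose (log2 fold change 1.31, SE 0.30, with a DESeq2 adjusted p of 0.00034), while Jam3 (-0.75, SE 0.24, DESeq2 adjusted p 0.0166) and Icam5 (-2.17, SE 0.53, DESeq2 adjusted p 0.00083) fell. Jam3 did not pass under edgeR (adjusted p 0.0672), nor under DESeq2 without Control replicate 1 (0.0643), knockout replicate 1 (0.0644) or knockout replicate 3 (0.0769).

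Of 11 non-integrin laminin receptors and partners, 1 was higher and 1 lower, or 9.09% each, near the 7.74% and 7.18% of all genes. The edgeR test called 1 higher and 1 lower, beside 3.22% and 2.8% of all genes. Without Control replicate 3, 3 were higher and 1 lower with DESeq2, where 7.53% and 6.78% of all genes were. Sdc1, a cell-surface proteoglycan of epithelia, rose from 701, 843 and 930.0 to 1664, 1352 and 1586 normalized counts (log2 fold change 0.90, SE 0.19, DESeq2 adjusted p 7.02e-05). Sdc2, a related proteoglycan, fell from 3103, 2994 and 4517 to 1827, 2027 and 1927 (log2 fold change -0.88, SE 0.22, DESeq2 adjusted p 0.000962). Neither gene overlapped between groups. Of 28 genes whose proteins join integrins to the cytoskeleton, 0 were higher and 1 (3.57%) was lower, beside 7.74% and 7.18% of all genes, and their median log2 fold change was 0.12. The lower gene was Tln2, a talin, with 3844, 3821 and 3285 against 1756, 1189 and 1153 (log2 fold change -1.42, SE 0.22, DESeq2 adjusted p 1.99e-08), whereas the widespread Tln1 had a log2 fold change of -0.06 (SE 0.17). With edgeR, 0 of the 28 genes were higher and 1 was lower, beside 3.22% and 2.8% of all genes.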

How the data were processed

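RNA from 6 whole mouse kidneys was sequenced from poly-A libraries. Per the labels and the study's methods, the authors processed the reads with CASAVA 1.8.2 and Trimmomatic, aligned them with TopHat2 2.0.11 to mm9 and counted the uniquely aligned ones per gene with HTSeq; the deposited values are these raw counts, not normalized. Unique alignment lowers counts of genes with near-identical copies. Strand use in counting is not given in the sources used here. Depth was 16591156 to 22898008 counts per library. Precision is limited by the 3 libraries per group and, for genes with few reads, by counting error. The design text calls them biological replicates.

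The counts were tested with DESeq2 1.42.0 (R 4.3.3; Wald test, median-ratio size factors, no covariate, independent filtering at 0.05, whose lowest mean was 3.508 normalized counts, Benjamini-Hochberg over all 16509 genes left), the study's tool. The threshold was an adjusted p under 0.05. Alternatives were edgeR 4.0.16 (quasi-likelihood) and limma 3.58.1 with voom, both with edgeR's default filter of low counts. Further DESeq2 fits used other size factors, other filters (1 of them at least 10 counts in 3 libraries) or a block for replicate number. Each library was also left out in turn. The edgeR fit without Control replicate 3 was added after seeing the data. The fits were tested on simulated counts.

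Fold changes were given for members with 60 or more reads. Every member is named except 1 that, like 1 marker gene, is not reported here. Of each pathway list, at most 5 called genes per direction were named, by adjusted p. Tln1, Fn1 and the other genes beyond these rules were named after their values were seen. These others were Cd3e, Cd8a, Adgre1, Mpo, S100a8, S100a9, Pf4, Gp6, Aqp3, Gata3, Krt8, Krt18, Krt19, Wt1 and Flt1. Members and lists were chosen with earlier results of these data known. Exon lengths and positions came from GENCODE vM1 (NCBIM37, the same assembly as mm9), where Lamb1 is listed under an older symbol. Start regions came from RefSeq (GRCm38.p6).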

Additional observations from a re-analysis of the deposited data

How the results depend on the processing

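Of the 11 higher members, 8 were higher with the replicate number as a block, as were 4 in place of 3 lower ones: Lama4 gained a call, and Lamb2, Itga7 and Itga10 lost theirs. Same-numbered Control and knockout libraries deviated together only weakly (correlations -0.0378, 0.0548 and 0.0899), and replicate numbers were treated as names only. The count of higher members was 6 with edgeR, 6 with limma-voom and 4 with edgeR without Control replicate 3, which also left 2 of 5 higher at 2-fold; leaving out 1 library at a time gave 6 to 11. The count of lower pathway genes, 9, was 4 with edgeR and with limma-voom, and 5 to 12 when 1 library was left out. The 8 members Itgam, Itgb2, Itga3, Itgb4, Lama5, Itgb6, Itga8 and Lamc3 passed in each DESeq2 fit that left out 1 library; edgeR without Control replicate 3 did not call Itgb2 or Lamc3. Total-count scaling moved the median log2 fold change of all genes by -0.10, and the Itga6 value to -0.0440. Signs of uncalled members turned when 1 library was left out, with log2 fold changes from -0.58 to 0.09 for Itga4, -0.17 to 0.0745 for Itga5, -0.17 to 0.16 for Itga6, -0.28 to 0.17 for Itgae, -0.32 to 0.15 for Itgb8 and -0.54 to 0.25 for Lama2. With edgeR without Control replicate 3 the values were 0.0788 (Itga4), 0.0631 (Itga5), -0.18 (Itga6) and 0.24 (Lama2). Over all alternatives, 499 single values kept direction and side of the threshold, 44 lost and 2 gained a call, and 15 turned sign. The causes were not tested.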
